A study of Mus musculus with 19 samples.

Results

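The 7 genes described here encode the MHC class II antigen-presentation machinery of the mouse, and they were chosen by name (H2-Aa, H2-Ab1, H2-Eb1, Cd74, Ciita, H2-DMa and H2-DMb1) from the 54179 genes of the deposited table of read counts. All 7 names were present. The cells were EPCAM+PLET1+ epithelial cells of wild type C57BL/6 embryos, sorted one per well from microdissected thymic primordia at 2 embryonic days (E10.5 or E12.5) and sequenced as whole transcriptomes. The comparison asks which of these genes were already read when the third pharyngeal pouch had just formed its thymus domain, and which were read 2 days later. Each stage had 4 plates, named a, b, c, d at the earlier stage and a, c, d, e at the later one, every plate is a library for which the table sums 2 sequencing runs (a further run of E10.5 plate d and of E12.5 plate e is not in that sum and was not used), and a further E12.5 plate (b), which had a single run and no column in the table, is used only where named. No source used here says that plates came from separate embryos, so p-values measure the spread between plates, which may be technical.

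MHC class II molecules present peptides to CD4+ T cells, and in the thymus they do so on epithelial cells, where the cortical display selects the CD4+ lineage. H2-Aa and H2-Ab1 encode the α and β chains of I-A, and H2-Eb1 the β chain of I-E, whose α chain is not made in C57BL/6 mice. Cd74 encodes the invariant chain, which fills the groove and guides the dimer to the endosome, and H2-DMa and H2-DMb1 encode the DM dimer, which exchanges the invariant chain remnant for peptide. Ciita encodes the coactivator that the RFX, CREB and NF-Y factors recruit at the X and Y boxes upstream of these genes, and interferon-γ acts on it through factors that include IRF1. Foxn1 encodes the transcription factor of the thymic epithelial lineage, and Ccl25, a FOXN1 target, encodes a chemokine that draws T cell progenitors.

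The genes lie at 3 places of the GRCm38 genome (positions from GENCODE vM21). H2-DMa (chr17:34119541-34139101), H2-DMb1 (chr17:34153072-34160230), H2-Ab1 (chr17:34257689-34269419), H2-Aa (chr17:34282744-34287823, on the minus strand) and H2-Eb1 (chr17:34305867-34316674) are neighbours in the MHC. Ciita is at chr16:10480059-10528418, and Cd74 lies on another chromosome. RefSeq promoter windows (GRCm38.p6) were searched for 4 members, H2-Aa, H2-Eb1, H2-DMb1 and H2-DMa, and those of H2-Ab1, Ciita and Cd74 were not analysed here. To show the letters of a motif pair known from promoters of this family, 150 bases upstream of the annotated start are printed 5′ to 3′ on the gene's own strand for the 3 of these 4 whose window held both an X-type and a Y-type motif on the same strand with starts no more than 40 bases apart. Capitals mark the X-type motif GNAACT and, after it, the Y-type motif ATTGG, both searched on both strands with the letters chosen while the windows were in view.
H2-Aa: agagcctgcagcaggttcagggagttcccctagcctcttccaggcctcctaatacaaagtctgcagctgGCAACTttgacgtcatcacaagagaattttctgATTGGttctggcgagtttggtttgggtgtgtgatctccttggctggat
H2-Eb1: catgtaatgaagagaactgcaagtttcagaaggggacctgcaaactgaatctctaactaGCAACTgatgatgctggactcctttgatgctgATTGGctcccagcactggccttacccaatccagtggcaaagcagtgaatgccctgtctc
H2-DMb1: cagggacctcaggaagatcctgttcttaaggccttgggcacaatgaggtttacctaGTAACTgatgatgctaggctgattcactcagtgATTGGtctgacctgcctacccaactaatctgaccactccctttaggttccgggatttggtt
These stretches are chr17:34287824-34287973 (minus strand), chr17:34305717-34305866 (plus strand) and chr17:34153041-34153190 (plus strand). The X-type motif began 81 bases before the start of H2-Aa, 91 before that of H2-Eb1 and 94 before that of H2-DMb1, and the Y-type motif followed 33, 32 and 33 bases further on. The search covered windows of 300 bases, from 250 before a start to past it, and of all 32851 such RefSeq windows 42.8% held the X-type letters, 37.4% the Y-type letters and 1.52% such an ordered pair. Neither of the windows of H2-DMa held the pair. Both (chr17:34122582-34122881 and chr17:34125268-34125567) lie inside the GENCODE gene given above, so the sequence at its GENCODE start was not searched. RefSeq starts H2-DMb1 downstream of the GENCODE start given above. A match is a description of the letters and not a measured site.

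The 8 plates carried 14981265 to 20106286 reads on all genes, and 711 of 733 wells passed the study's limits on reads, genes and mitochondrial share, 356 at E10.5 and 355 at E12.5. The median number of molecules per cell in the deeper run of a plate ranged from 1305 (E10.5a) to 5624 (E12.5e), so shares of cells are also given after each cell was thinned to 1000 molecules, which left out 25 cells at E10.5 and 5 at E12.5. Clustering that left the members, Foxn1 and Ccl25 out of the variable genes gave, at E12.5, 262 cTEC-like cells in 2 clusters and 32 mTEC progenitor-like cells (together 294 thymic epithelial-like cells), and 42 parathyroid-like cells. At E10.5 it gave 211 pharyngeal endoderm-like, 82 neural-like and 63 unnamed cells. The labels call all of these thymic epithelial progenitors, and the neural-like and parathyroid-like clusters go against that label. The larger cTEC-like cluster had no cTEC marker among its 10 leading genes. Of 15 haematopoietic and antigen-presenting markers, 7 had no read at E12.5, among them Spi1, Itgax, Itgam, Flt3, Cd79a and Cd3e, and their summed level, in reads scaled to the protein-coding reads of the kept cells (CPM), ranged from 2.96 to 90.4 at E12.5 and from 2.16 to 7.56 at E10.5.

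H2-Aa and Cd74 were almost unread at E10.5, H2-Ab1 was read there at a low level, and all of them were present on every plate at E12.5. H2-Aa was at 57.3, 41.2, 67.4 and 34.9 CPM in the summed reads of E12.5 (plates a, c, d, e in this order throughout), and at E10.5 it had 1 read, on plate b (0.075 CPM). Every E12.5 plate lay far above every E10.5 plate. The E12.5 mean was 50.2 ± 14.9 CPM (SD, n = 4 plates). The difference passed edgeR's quasi-likelihood test (adjusted p = 2.2e-05, Benjamini-Hochberg adjustment over 11499 genes). Pooled over plates H2-Aa had 3264 reads at E12.5 and 1 at E10.5. Summed over the 2 runs of each plate, each of which can count the same molecule, it had 137 molecules and 1 molecule. In the deeper run alone it had 18, 9, 21 and 23 molecules on the E12.5 plates and 0 at E10.5. On the molecules summed over both runs its log2 fold change was 6.62 (adjusted p = 2.7e-06, edgeR).

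H2-Ab1 was at 241, 353, 266 and 223 CPM on the E12.5 plates and at 0, 11.6, 9.77 and 0.35 on E10.5 plates a to d. It had E10.5 reads on 3 of 4 plates, and no plate of the earlier stage came near the later ones. The means were 270.7 ± 57.4 and 5.43 ± 6.12 CPM (n = 4 plates each; log2 fold change 5.55 with standard error 1.12, adjusted p = 0.013, edgeR). Cd74 (chr18:60803848-60812652, GRCm38) had no read in any E10.5 cell and was at 18.2, 26.8, 22.5 and 11.9 CPM at E12.5, a mean of 19.9 ± 6.39. Cd74 passed the test between the stages (adjusted p = 0.00078, edgeR). Set against a floor of 3 reads over the E10.5 plates, its E12.5 reads were 343-fold higher. Its 1270 E12.5 reads went with 254 molecules summed over both runs. Reads of a molecule repeat, so the 343-fold ratio describes reads and is not a lower bound on the change.

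**Figure D1:**
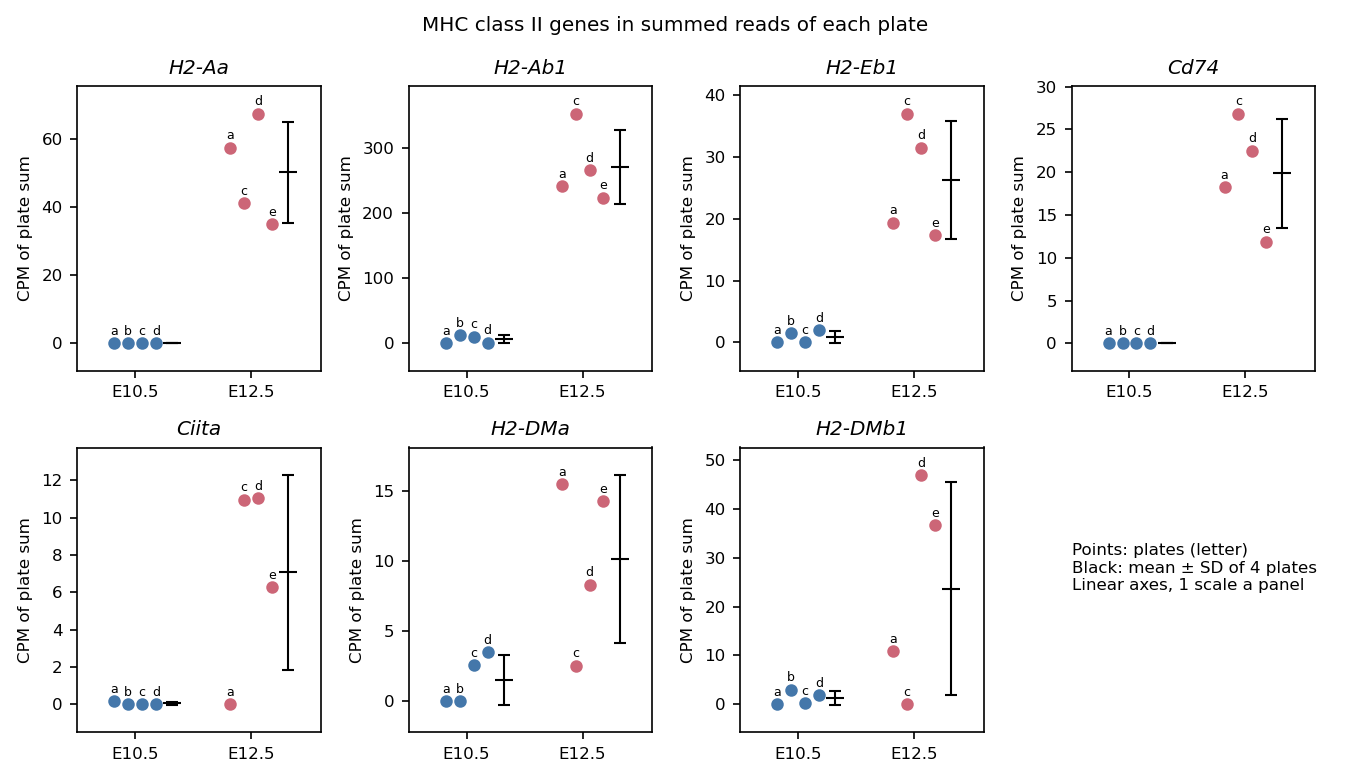
Reads of each member summed over the cells of a plate, in CPM on linear axes with a separate scale for each gene; points are plates with their letter, and black marks give the mean ± SD of 4 plates. The E12.5 plates of H2-Aa, H2-Ab1, H2-Eb1 and Cd74 lie above all E10.5 plates, while those of Ciita, H2-DMa and H2-DMb1 reach down to the E10.5 values.

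The I-E β chain stood apart by plate but did not pass the test. H2-Eb1 was at 19.4, 37.0, 31.5 and 17.3 CPM at E12.5 and at 0, 1.51, 0 and 1.95 CPM at E10.5, without overlap. Its log2 fold change was 4.70 (standard error 1.26, adjusted p = 0.051, edgeR), and its adjusted p lay between 0.00024 and 0.13 over 15 alternative settings, 5 of which passed. Of the 6 members that could be tested 3 passed (H2-Aa, H2-Ab1 and Cd74), all higher at E12.5, where 3.8% of all genes tested were called higher. 4 of these 6 members had no overlap between the plates with E12.5 higher, against 8.59% of all genes tested, and for each of the 4 the two-sided exact permutation p was 0.029, the smallest that 4 plates against 4 allow. The median log2 fold change of the 6 tested members was 5.12, and that of all genes tested was 0.0013.

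The coactivator and the DM chains were read at low levels that varied between plates. Ciita had no read on E12.5 plate a and was at 10.96, 11.1 and 6.26 CPM on plates c, d and e, and at E10.5 it had 2 reads, both on plate a. Its 451 E12.5 reads went with 19 molecules summed over the 2 runs, and its 2 E10.5 reads with 1 molecule. The gene did not pass the filter on low counts of the fit across genes. Plate a was the only E12.5 plate without a Ciita read. Leaving it out let the gene enter the fit and pass, but this removes the replicate that went the other way. With all plates and a filter of at least 1 read in 2 sums, edgeR did not call it. H2-DMa was at 15.5, 2.53, 8.32 and 14.3 CPM at E12.5 and at 0, 0, 2.57 and 3.48 CPM at E10.5, with E12.5 plate c inside the E10.5 range (log2 fold change 2.58, standard error 1.49, adjusted p = 0.42, edgeR). H2-DMb1 was at 10.9, 0, 47.0 and 36.7 CPM at E12.5 and at 0, 2.94, 0.17 and 1.81 CPM at E10.5, and plate c again overlapped (log2 fold change 4.18, standard error 1.67, adjusted p = 0.21, edgeR). H2-DMb1 has a near-identical neighbour, H2-DMb2, between which the counting could have split reads; H2-DMb2 itself had 37 reads at E10.5 and 21 at E12.5.

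The same 3 members passed when the comparison was restricted to the lineage, E12.5 thymic epithelial-like against E10.5 pharyngeal endoderm-like cells, where 3.43% of 10792 genes were called higher. H2-Ab1 was at 243 to 434.5 CPM in the former and at 0 to 13.7 CPM in the latter, or 5.87 on the log2 scale (standard error 1.13, adjusted p = 0.011, edgeR). H2-Aa was at 38.1 to 76.4 CPM against a lone read (adjusted p = 4.3e-05, edgeR), and Cd74 at 13.0 to 34.4 CPM against none (adjusted p = 0.0014, edgeR). For H2-Eb1 the values were 18.9 to 47.4 against 0 to 2.72 CPM (log2 fold change 4.50, standard error 1.24, adjusted p = 0.064, edgeR). H2-DMa (adjusted p = 0.53) and H2-DMb1 (adjusted p = 0.18) did not pass in the same edgeR fit. Each of these comparisons shares its E12.5 and E10.5 libraries with the one over all cells.

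Counted by cell, H2-Ab1 had the widest detection. At E12.5 a DBEC-adjusted molecule (a molecular index kept after the supplier's error correction) of H2-Ab1 was found in 42.9%, 33.3%, 37.6% and 53.9% of cells on plates a, c, d and e, and in 149 of 355 cells in all (42.0%, 95% exact binomial interval 36.8 to 47.3). At E10.5 it was found in 0, 4.40%, 5.88% and 5.43% of cells on plates a to d. The plates of the stages did not overlap (two-sided exact permutation p = 0.029), and after thinning the shares were 17.7% at E12.5 and 0.84% at E10.5. Cd74 was found in 67 E12.5 cells (18.9%, interval 14.9 to 23.3) and in 0 of 356 E10.5 cells, which allows a share of cells with a molecule of up to 0.843%. H2-Aa was found in 42 E12.5 cells (11.8%, interval 8.66 to 15.7) and in 0 of 356 E10.5 cells, with the same limit. H2-Eb1 was found in 34 E12.5 cells (9.58%) and 3 E10.5 cells (0.84%). The intervals and limits cover counting error only.

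The remaining members were found in few cells at either stage. H2-DMa was found in 15 E12.5 cells (4.23%, interval 2.38 to 6.87) and 5 E10.5 cells (1.40%), H2-DMb1 in 12 (3.38%) and 2 (0.56%), and Ciita in 7 (1.97%) and 1 (0.28%). For each of these genes the plates of the stages overlapped, so that a difference was not detectable at this depth. Any member was found in 184 E12.5 cells (51.8%, interval 46.5 to 57.1) and 25 E10.5 cells (7.02%, interval 4.60 to 10.2), or 26.9% and 1.62% after thinning. None of the 25 E10.5 cells held a molecule of more than 1 member.

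The E10.5 molecules of H2-Ab1 were found in all 3 classes of cells. They were found in 8 of 211 pharyngeal endoderm-like cells (3.79%, interval 1.65 to 7.33), 4 of 82 neural-like cells (4.88%, interval 1.34 to 12.0) and 2 of 63 unnamed cells (3.17%). Thinned to 1000 molecules the shares were 0.85%, 0.96% and 0.64% in the same order. The endoderm-like share was not above that of the neural-like cells. These shares pool cells over plates and were not tested between classes. The classes also differ in plate: 70 of the 211 endoderm-like cells came from plate a, where 0 of 88 cells held H2-Ab1 at a median of 1305 molecules. Of the 14 cells with an H2-Ab1 molecule, 13 held 1 molecule. The 8 endoderm-like cells held 145 H2-Ab1 reads, 4 of them with at least 10 reads and at most 47 in a cell.

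Within E12.5, H2-Aa, H2-Eb1 and H2-Ab1 were higher in the thymic epithelial-like cells than in the parathyroid-like cells of the same plates, while Cd74 and H2-DMa did not pass the test. H2-Aa was at 68.7, 52.8, 76.4 and 38.1 CPM in thymic epithelial-like cells and had no read in the 42 parathyroid-like cells (adjusted p = 0.011, edgeR). By cell, a molecule was found in 14.3% of thymic epithelial-like cells. It was found in 0 of 42 parathyroid-like cells, which allows a share of up to 7.14%. H2-Eb1 was at 23.2, 47.4, 35.7 and 18.9 CPM against no read (adjusted p = 0.024, edgeR). It was found in 11.6% of thymic epithelial-like cells and in 0 of the 42, with the same limit. H2-Ab1 was at 288, 434.5, 297.5 and 243 CPM in thymic epithelial-like cells and at 2.51, 0.91, 40.3 and 7.89 CPM in parathyroid-like cells (log2 fold difference 4.73, standard error 1.03, adjusted p = 0.029, edgeR). No plate overlapped for these 3 genes, as for 12.8% of all genes tested with the thymic epithelial-like cells higher. They were the 3 called of 5 members tested, where 6.32% of 9718 genes were called higher.

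These calls rested on few parathyroid-like cells, 6 to 15 a plate. With the plate as a block, which fits here because both sums of a plate come from 1 library, H2-Ab1 alone stayed past the threshold (adjusted p = 0.0091, edgeR), with 0.063 for H2-Aa and 0.12 for H2-Eb1 in the same edgeR fit. Leaving out plate a, c or e left no member called, and leaving out plate d left 1, H2-Ab1. The median log2 fold difference of all genes was 0.18 here, -0.03 with RLE size factors and 1.04 with the block. In every one of these fits H2-Aa, H2-Ab1 and H2-Eb1 were higher in the thymic epithelial-like cells.

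Cd74 was at 21.1, 34.4, 25.4 and 13.0 CPM in thymic epithelial-like cells and at 5.03, 0.45, 0.63 and 0 CPM in parathyroid-like cells, without overlap (log2 fold difference 4.07, standard error 1.36, adjusted p = 0.12, edgeR). Of its 12 parathyroid-like reads 10 came from 1 well of plate a, which had reads of 7 haematopoietic markers (Ptprc, Laptm5, Tyrobp, Fcer1g, Coro1a, Rac2 and Cd52). Without that well Cd74 passed (log2 fold difference 6.38, adjusted p = 0.029, edgeR). With the well kept, DESeq2 called Cd74 (adjusted p = 0.0025), and so did edgeR on molecules (adjusted p = 0.0017). The same well held 81 of the 103 H2-DMa reads of the parathyroid-like cells. H2-DMa was at 12.7, 3.25, 7.43 and 14.1 CPM in thymic epithelial-like cells and at 40.7, 0, 0 and 21.7 CPM in parathyroid-like cells (log2 fold difference -0.55, standard error 1.64, adjusted p = 0.94, edgeR), and the difference was 0.88 without the well (adjusted p = 0.91, edgeR). Ciita and H2-DMb1 had no read in parathyroid-like cells and were not tested there. A molecule of any member was found in 178 of 294 thymic epithelial-like cells (60.5%) and in 4 of 42 parathyroid-like cells (9.52%), or in 31.5% and 2.99% after thinning.

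**Figure D2:**
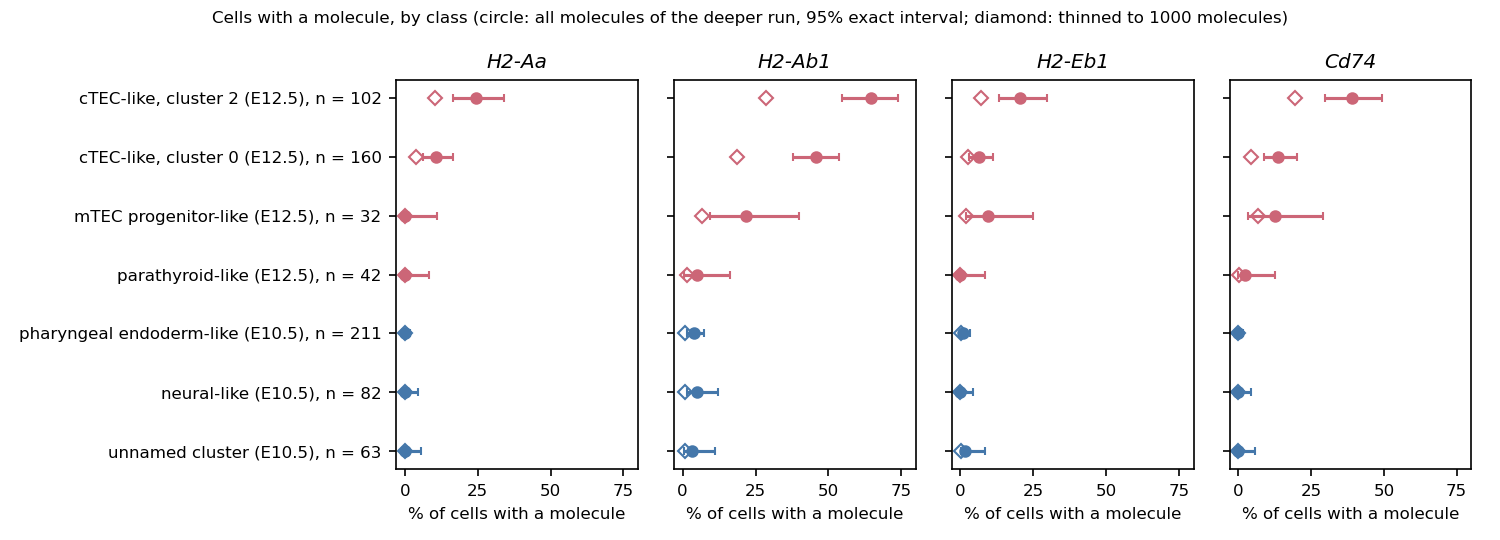
Share of cells with a molecule of H2-Aa, H2-Ab1, H2-Eb1 and Cd74 (horizontal axes, percent) in each class of cells (rows, with the number of cells); circles with bars give the share in the deeper run with its 95% exact binomial interval, and open diamonds the share after thinning to 1000 molecules. The H2-Ab1 share is 64.7% in cTEC-like cluster 2, 45.6% in cluster 0, and lower in the mTEC progenitor-like (21.9%) and parathyroid-like (4.76%) classes.

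Among thymic epithelial-like cells, the I-A chains were lower in mTEC progenitor-like than in cTEC-like cells on each plate, in a comparison that rests on 5 to 11 mTEC progenitor-like cells a plate. H2-Aa was at 0, 1.61, 0.66 and 0 CPM (3 reads in all) in the former and at 73.3, 59.1, 84.6 and 46.1 CPM in the latter (adjusted p = 0.094, edgeR). H2-Ab1 was at 3.47, 217, 42.7 and 34.2 CPM against 308, 461, 325 and 287 CPM (log2 fold difference -2.28, standard error 0.87, adjusted p = 0.35, edgeR), with plate c the highest of the progenitor-like plates. H2-DMa had no read in mTEC progenitor-like cells and 3.65 to 17.1 CPM in cTEC-like cells (adjusted p = 0.094, edgeR), but with classes from a log-normalized clustering its log2 fold difference was -0.52 (adjusted p = 0.999, edgeR). The plates of these 3 members did not overlap, as for 11.2% of 9316 genes with the mTEC progenitor-like cells lower, and no member was called in edgeR, although these 3 had an unadjusted p under 0.05. In that fit 0.0429% of genes were called in either direction and 880 genes had an unadjusted p under 0.05. On simulated counts for this comparison edgeR recovered 1.7% of genes changed by 3 on the log2 scale. A lack of calls therefore cannot decide whether the members differ. The median of all genes was -0.23, or -0.08 with RLE size factors and -1.28 with the plate block. DESeq2 called H2-Aa and H2-DMa, and edgeR on molecules called H2-Aa and H2-Ab1.

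Cd74 and H2-Eb1 overlapped between these classes. Cd74 was at 8.09, 66.1, 0 and 1.22 CPM in mTEC progenitor-like cells, so that plate c held most of it, and at 22.0, 30.5, 28.2 and 15.5 CPM in cTEC-like cells (adjusted p = 0.999, edgeR). H2-Eb1 was at 0, 0, 23.0 and 16.3 CPM against 24.8, 53.2, 37.0 and 19.5 CPM (adjusted p = 0.94, edgeR). Of the 32 mTEC progenitor-like cells 7 held a molecule of H2-Ab1 (21.9%, interval 9.28 to 39.97), 4 of Cd74, 3 of H2-Eb1, 1 of H2-DMb1 and 0 of H2-Aa, Ciita or H2-DMa, which allows a share of up to 9.38% for each of the last 3. In cTEC-like cells the H2-Ab1 share was 53.1% (interval 46.8 to 59.2).

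Between the clusters of cTEC-like cells the shares of cells with H2-Ab1, Cd74, H2-Aa and H2-Eb1 differed, as a description, since clusters are not replicated groups. In cluster 2, which had 102 cells and Tbata, Psmb11 and Psmb10 among its 10 leading genes, a molecule was found in 64.7% of cells for H2-Ab1, 39.2% for Cd74, 24.5% for H2-Aa and 20.6% for H2-Eb1. In cluster 0, with 160 cells, the shares were 45.6%, 13.8%, 10.6% and 6.25%. Cd74 was at 52.1, 90.6, 56.1 and 24.9 CPM on the plates of cluster 2 and at 10.1, 10.7, 7.48 and 2.61 CPM on those of cluster 0. H2-Ab1 was at 586 ± 361 CPM in cluster 2 and 232 ± 35.3 CPM in cluster 0. The plates of the clusters overlapped for H2-Eb1, H2-DMa, Ciita and H2-DMb1. How many of all genes lay apart between these clusters was not computed, so nothing is read from the members that did. H2-DMa was at 11.1 ± 12.7 CPM in cluster 2 and 9.32 ± 4.25 CPM in cluster 0, Ciita at 10.2 ± 15.4 and 7.33 ± 9.87 CPM, and H2-DMb1 at 47.8 ± 65.1 and 13.6 ± 16.8 CPM. Foxn1 was at 268 ± 94.8 CPM in cluster 2 and 245 ± 43.1 CPM in cluster 0, and Ccl25 at 6977 ± 1073 and 2296 ± 798 CPM (SD, n = 4 plates).

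Most thymic epithelial-like cells with any member held molecules of 1 member only. Of the 294 thymic epithelial-like cells, 116 held no molecule of any member, 99 held molecules of 1 member, 41 of 2, 19 of 3, 15 of 4, 3 of 5 and 1 of 6. Of 66 cells with Cd74, 55 also had H2-Ab1 (83.3%), against 39.9% of the cells without Cd74. Cells with Cd74 were deeper, at a median of 3978 molecules against 3271. After thinning, which applies to both genes of a pair here and below, the shares were 45.1% and 18.2%. The share was higher in the cells with Cd74 on 4 of 4 plates, from 31.6% against 16.1% on plate e to 54.3% against 14.2% on plate d.

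The partner chains of I-A were found together. Of 42 cells with H2-Aa, 34 had H2-Ab1 (81.0%, against 44.4% of cells without H2-Aa, or 49.1% against 19.1% after thinning) and 28 had Cd74 (66.7% against 15.1%, or 41.5% against 8.004%). The thinned shares were higher with H2-Aa on 4 of 4 plates for both partners. H2-Eb1 was found in 16 of these 42 cells (38.1%, against 7.14% of the cells without H2-Aa). Conversely, of 146 cells with H2-Ab1, 34 had H2-Aa (23.3%). Most positive cells held a lone molecule of the member, 63.0% for H2-Ab1, 60.6% for Cd74, 64.3% for H2-Aa and 85.3% for H2-Eb1, so that absence of a partner was not detectable at this depth.

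**Figure D3:**
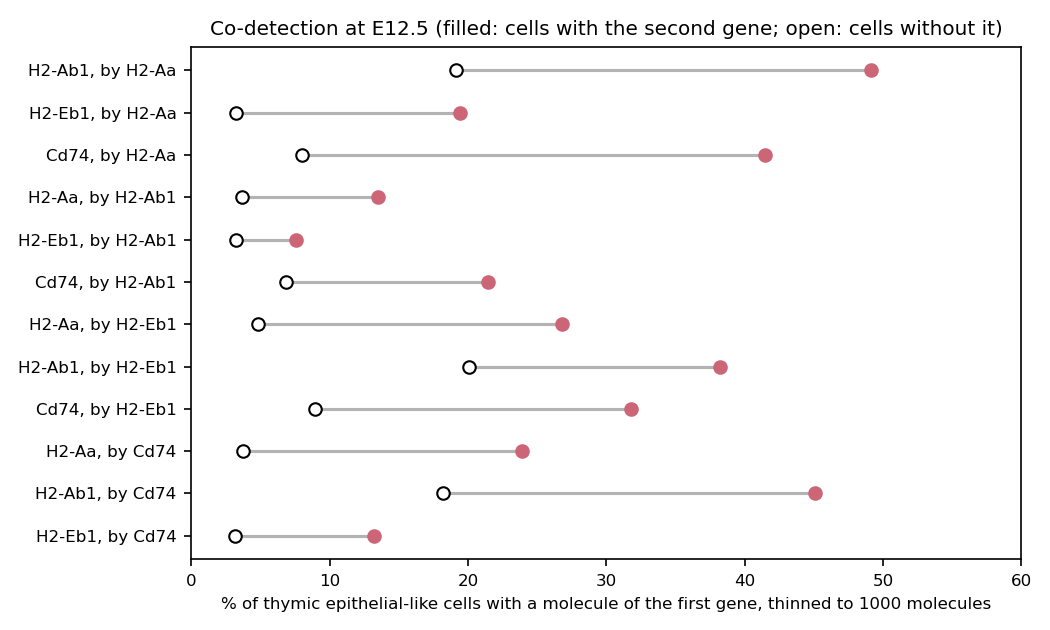
Share of thymic epithelial-like cells with a molecule of the first-named gene (horizontal axis, percent, thinned to 1000 molecules) among cells with (filled) and without (open) a molecule of the second-named gene. The filled point lies to the right of the open point in all 12 ordered pairs of H2-Aa, H2-Ab1, H2-Eb1 and Cd74, for example 45.1% against 18.2% for H2-Ab1 by Cd74.

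Cells with the coactivator were few. All 7 cells with a Ciita molecule were cTEC-like, and 6 of them had H2-Ab1, 5 H2-Aa, 4 Cd74 and 1 H2-Eb1. The 7 cells were deep, at a median of 5214 molecules against 3353 in the others. Thinning applied to Ciita as well, and left it an expected share of 0.60% of 291 cells. Among those expected detections H2-Aa was at 30.2%, against 5.57% in the remainder, and H2-Ab1 at 41.4% against 20.7%. These are not shares of the 7 cells. H2-DMa and H2-DMb1 were each found in 12 thymic epithelial-like cells and together in 2. Within plates the Spearman correlation of CPM over the 294 cells averaged 0.37 between H2-Ab1 and Cd74 (range over 4 plates 0.26 to 0.57), 0.37 between H2-Aa and H2-Eb1 and 0.33 between H2-Aa and Cd74. It averaged 0.28 between H2-Aa and H2-Ab1 and 0.16 between H2-DMa and H2-DMb1 (3 plates). These cells share a library and differ in depth, and the values are descriptions.

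Cd74, H2-Ab1, H2-Aa and H2-Eb1 were found in a larger share of the cells with the most Ccl25 than of those with the least, as a description over cells. Thymic epithelial-like cells were split within each plate into 4 groups of near-equal size by Ccl25, with medians of 26.0, 2015, 4639 and 7813 CPM and 72 to 74 cells in a group. Ccl25 also differed by class, at 2032 ± 939 CPM in mTEC progenitor-like and 4072 ± 385 CPM in cTEC-like cells, and between the cTEC-like clusters as given above. The groups can therefore differ in their make-up of clusters. A fit above against below the Ccl25 median in cTEC-like cells alone called no member. Over the 12 alternatives, that fit among them, the log2 fold difference was 1.05 to 1.90 for H2-Ab1, 1.91 to 3.25 for Cd74 and 0.49 to 1.72 for H2-Aa. The part played by the 2 cTEC-like clusters was not tested. From the lowest to the highest group, Cd74 was found in 4.05%, 18.9%, 26.4% and 40.5% of cells, or in 1.62%, 7.82%, 9.35% and 21.0% after thinning. H2-Ab1 was found in 31.1%, 41.9%, 61.1% and 64.9% (thinned 11.8%, 15.9%, 25.1% and 31.0%). H2-Aa was found in 2.70%, 12.2%, 15.3% and 27.0% (thinned 1.19%, 5.23%, 3.95% and 12.51%), and H2-Eb1 in 4 of 74, 3 of 74, 9 of 72 and 18 of 74 cells (thinned 1.68%, 1.73%, 4.17% and 9.02%). H2-DMb1 was found in 4.05%, 4.05%, 1.39% and 6.76% of cells (thinned 1.42%, 1.07%, 0.27% and 1.72%). The median number of molecules per cell was 3342, 3505, 3714 and 3206 in the same order, so the highest group was not the deepest. On all 4 plates the thinned share of each of these 4 genes was higher in the highest group than in the lowest. The share of cells with any member, thinned, was 16.7% in the lowest group and 48.6% in the highest.

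**Figure D4:**
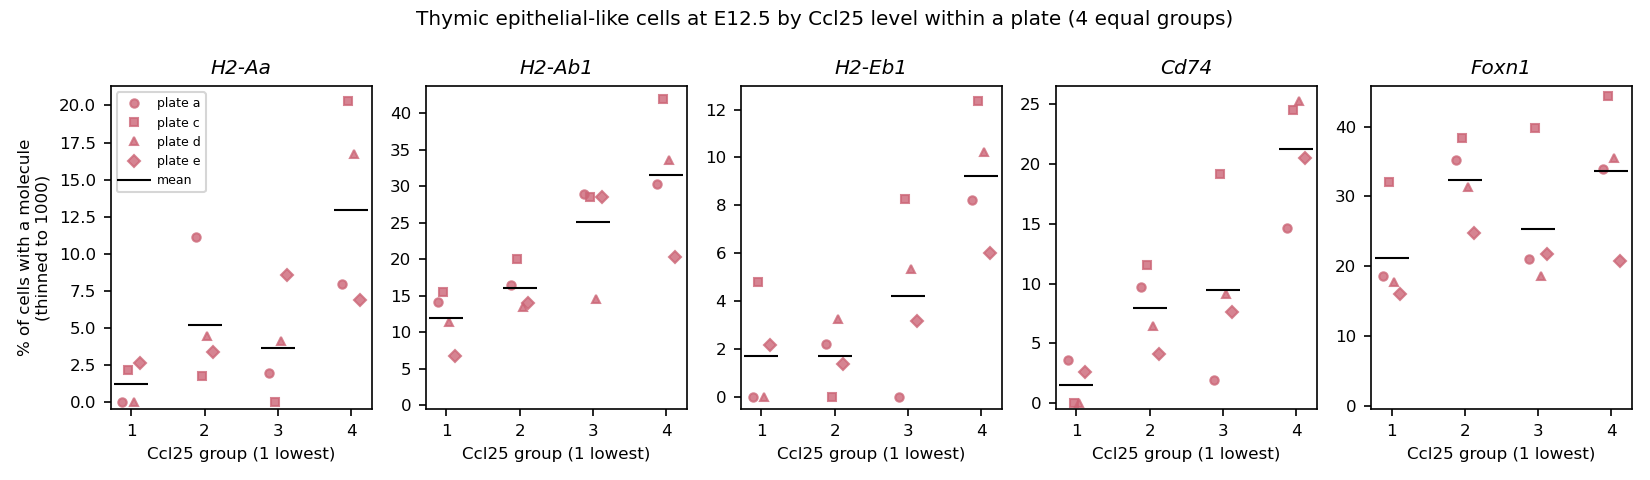
Share of thymic epithelial-like cells with a molecule (vertical axes, percent, thinned to 1000 molecules, a separate scale for each gene) in 4 groups by Ccl25 CPM within a plate, from 1 (lowest) to 4 (highest); symbols are the 4 E12.5 plates and black lines their mean. H2-Aa, H2-Ab1, H2-Eb1 and Cd74 are higher in group 4 than in group 1 on every plate, and Foxn1 goes from 21.1% to 33.6% on average.

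In the sums of reads, cells above and below the Ccl25 median of their plate did not overlap for 4 of 7 members. H2-Ab1 was at 401, 714, 373 and 333 CPM in the cells above the median of plates a, c, d and e and at 190, 170, 215 and 145 CPM in those below it (log2 fold difference 1.36, standard error 0.27, adjusted p = 0.27, edgeR). Cd74 was at 28.5, 57.0, 41.9 and 23.0 CPM against 14.6, 13.0, 7.53 and 1.93 CPM (2.10, standard error 0.71, adjusted p = 0.93, edgeR). H2-Eb1 was at 45.7, 82.2, 56.3 and 23.2 CPM against 3.56, 14.7, 13.3 and 14.2 CPM, and H2-DMa at 26.1, 6.70, 14.3 and 22.2 CPM against 0.96, 0, 0 and 5.19 CPM (adjusted p = 0.77 and 0.999, edgeR).

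Each of these 4 genes had a two-sided exact permutation p of 0.029, the smallest possible, which treats both sums of a plate as independent. Of all 9862 genes tested, 1.86% did not overlap in this direction. No member was called in edgeR, although 3 had an unadjusted p under 0.05; 0.0203% of all genes were called (2 genes, with Ccl25 higher) and 403 had an unadjusted p under 0.05. DESeq2 called H2-Ab1 (adjusted p = 0.0025), and edgeR on molecules called H2-Ab1 and Cd74 (adjusted p = 0.022 and 0.014). H2-Aa was at 42.7, 75.5, 116 and 59.8 CPM above the median and at 91.4, 31.4, 33.4 and 14.2 CPM below it, with plate a in the opposite order to the others. Ciita and H2-DMb1 overlapped as well, and H2-DMb1 had a log2 fold difference of -0.12 (standard error 1.62).

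By the Foxn1 molecule itself, no difference in the members was detectable. Of the thymic epithelial-like cells, 196 held a Foxn1 molecule in either run and 98 did not, at medians of 3559 and 2968 molecules. H2-Ab1 was found in 52.0% of cells with Foxn1 and 44.9% of cells without it, and after thinning in 21.4% and 19.7%. Cd74 was found in 49 of 196 and 17 of 98 cells (thinned 10.2% and 9.37%), and H2-Aa in 14.3% of both. With Foxn1 the thinned share was higher on 2 of 4 plates for H2-Ab1 and H2-Aa, on 3 for Cd74 and on 1 for H2-Eb1.

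In the sums of reads, H2-Ab1 was at 296, 400, 350 and 226 CPM in cells with a Foxn1 molecule and at 274, 515, 186 and 292 CPM in those without it (log2 fold difference -0.06, standard error 0.31). Cd74 was at 17.5, 39.2, 25.8 and 11.1 CPM against 27.7, 22.8, 24.5 and 18.4 CPM (-0.08, standard error 0.65), and H2-Aa had a difference of -0.20 (standard error 0.59). Within each plate H2-Eb1 was lower with Foxn1, at 19.1, 44.6, 27.1 and 16.9 CPM against 30.9, 54.2, 53.8 and 24.7 CPM (-0.68, standard error 0.58). No other member kept a single order on every plate. All 7 members overlapped between the groups, where 2.31% of all genes tested lay apart with the cells with Foxn1 higher and 0.762% with them lower, and 0 passed in edgeR, with 0 at an unadjusted p under 0.05. Foxn1, which made the split, was the 1 gene called of 9715 (0.0103%), and 255 genes had an unadjusted p under 0.05, and DESeq2 called no member. A cell without a Foxn1 molecule can still transcribe the gene: 81.6% of the 294 cells had a Foxn1 read. The standard errors leave room for differences in either direction, widest for Ciita (1.80, standard error 2.08).

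**Figure D5:**
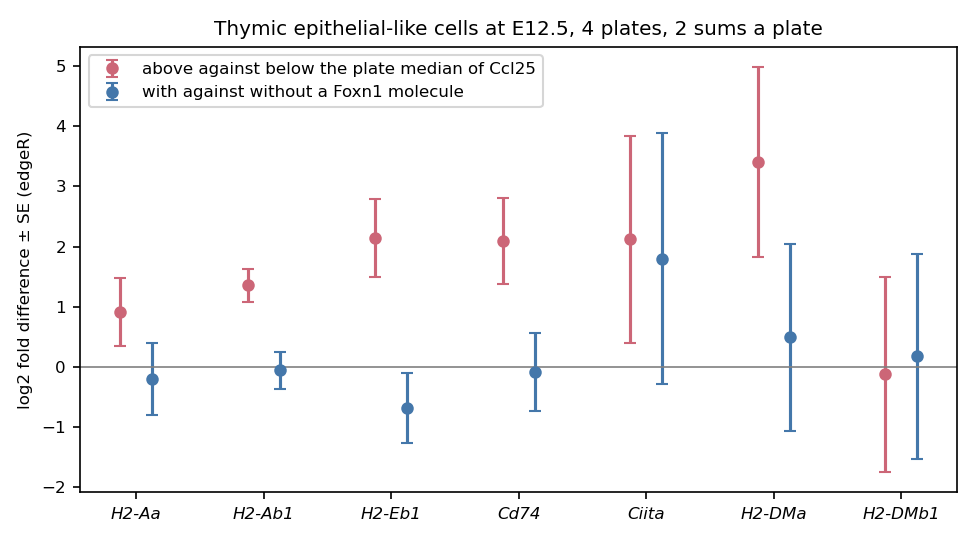
Log2 fold difference of each member ± standard error in edgeR (vertical axis) between thymic epithelial-like cells above and below their plate's median of Ccl25 (red) and between those with and without a Foxn1 molecule (blue), from 4 plates with 2 sums each. H2-Ab1 is at 1.36 ± 0.27 for Ccl25 and -0.06 ± 0.31 for Foxn1; no member passed the test across all genes in either comparison.

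As a description over 294 cells, the within-plate Spearman correlation of CPM with Ccl25 averaged 0.39 for Cd74 (range over plates 0.20 to 0.49), 0.27 for H2-Ab1, 0.21 for H2-Aa and 0.20 for H2-Eb1, and with Foxn1 it averaged 0.06, 0.05, 0.01 and -0.04 for the same genes. Foxn1 and Ccl25 themselves averaged 0.16. Over the same cells and 7243 genes found in at least 10% of them, the 5 genes whose CPM went most with the members' summed CPM were Psmb11 (mean Spearman correlation 0.36), Ctsl (0.35), Ccl25 (0.32), Mfsd12 (0.30) and Psmb10 (0.29). Psmb11 and Psmb10 encode proteasome subunits of the thymus and of immune cells, and Ctsl encodes cathepsin L, a protease that degrades the invariant chain. Foxn1 ranked 1909 (0.05). H2-Ab1 led the summed CPM, with 16948 reads in these cells against 3264 for H2-Aa, the next member, so the ranking weighs H2-Ab1 most.

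Other genes of the pathway are given by list. Of 13 accessory genes (DO chains, cathepsins and others) 11 were in the table and 6 could be tested between the stages, and 1 rose: Ctsl was at 560 ± 161 CPM at E12.5 and 55.7 ± 2.29 CPM at E10.5 (log2 fold change 3.22, standard error 0.24, adjusted p = 2.2e-05, edgeR). Ctss had 1 read in all, and H2-Ob none. Of 12 genes for the RFX, NF-Y and CREB factors and their cofactors, 11 were tested and 0 were called by edgeR, 2 had an unadjusted p under 0.05 and DESeq2 called 2. Their median log2 fold change was -0.16.

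Of the genes of the interferon-γ input, Irf1 rose. It was at 105.6 ± 5.34 CPM at E12.5 and 1.76 ± 2.46 CPM at E10.5 (log2 fold change 5.68, standard error 1.06, adjusted p = 0.0084, edgeR), and Ifng itself had no read in any cell of either stage. Of 13 MHC class I genes 10 were tested and 3 rose: Tapbp, which encodes tapasin of the peptide-loading complex (30.9 ± 8.35 against 3.44 ± 1.64 CPM), Psmb10 (594 ± 90.5 against 71.0 ± 44.3 CPM) and the class I heavy chain gene H2-K1 (29.3 ± 3.43 against 4.93 ± 2.36 CPM), with adjusted p of 0.010, 0.00066 and 0.017 in edgeR. DESeq2 called 6 of these 10, and edgeR called 3.8% of all genes tested higher. By edgeR 0 genes of these lists fell. Between thymic epithelial-like and parathyroid-like cells Lgmn, which encodes the endosomal protease legumain, was lower in the former (2.56 ± 1.13 against 60.7 ± 36.2 CPM, adjusted p = 0.031, edgeR) and Ctsl was higher (645 ± 218 against 120 ± 43.7 CPM, adjusted p = 0.0030, edgeR), where 1.8% of genes were called lower. Of the 9 FOXN1 targets listed all 9 rose between the stages, among them Ccl25 (3295 ± 355 against 13.0 ± 9.39 CPM), and Ctsl stands in that list too.

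Of the 294 thymic epithelial-like cells 9 held any of the 15 markers, and these included 1 of the 146 cells with H2-Ab1, 1 of the 66 with Cd74 and 2 of the 42 with H2-Aa. Every cell with H2-Aa, H2-Ab1, H2-Eb1 or Cd74 in this class had a molecule of an epithelial marker (Epcam, Krt8, Krt18 or Cdh1), 100% of each. The E12.5 mean of H2-DMa over all cells was 10.2 ± 5.99 CPM with the well described above and 9.01 ± 4.97 CPM without it, and the 3 calls between the stages were the same genes without it.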

How the data were processed

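EPCAM+PLET1+ cells were profiled with the BD Precise WTA assay, which tags each molecule with a molecular index. The authors deposited a table of read counts per gene and well, aligned with STAR and counted with HTSeq, and for each run tables of molecule counts from the supplier's pipeline, raw and corrected (RSEC, DBEC). The headers of the run tables name GRCm38.p6 and GENCODE vM18, and the submitters' notes GRCm38.p5. The patch behind the read table is not settled. Reads were the main unit here, and DBEC counts of the deeper run of a plate gave shares of cells. For the Foxn1 split a molecule in either run counted. PCR makes reads of a molecule repeat, so counts of reads are not counts of molecules. Intervals on shares of cells cover counting error only.

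Cells with 40000 to 400000 reads, 500 to 5000 genes and at most 50% mitochondrial reads were kept, by the study's stated limits, over 21964 protein-coding genes. The cells kept are a few more at E10.5 and a few fewer at E12.5 than the study gives. Clusters came from Seurat 5.3.0 with sctransform 0.4.2 (3000 variable genes without the members, Foxn1, Ccl25 and the pathway lists, 20 components, resolution 1.4, 8 clusters), and were named by marker lists. Doublets were not called, since each well received a sorted cell. Reads were summed per plate and class (at least 3 cells) and tested with edgeR 4.0.16 (TMM, filterByExpr, robust quasi-likelihood, adjusted p under 0.05, Benjamini-Hochberg). All-cell sums of a stage were CPM of protein-coding reads. DESeq2 1.42.0, other size factors, a lower filter, molecules, a plate block, another clustering and leaving out each plate were alternatives. The fits were tested on simulated counts with genes changed by 3 on the log2 scale. Of these edgeR recovered 54.6% between the stages, 41.3% in the lineage comparison and 9.34% against parathyroid-like cells. It recovered 1.7% between mTEC progenitor-like and cTEC-like cells, 39.0% for Foxn1 and 37.2% for Ccl25. Thinning was computed exactly as the hypergeometric chance of keeping a molecule. Permutation tests used scipy 1.17.1.

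Groups came from the labels' stage and plate. Within E12.5 both sums of a plate come from 1 library, and the residuals of such pairs correlated at 0.026 to 0.16. The members and lists were chosen with earlier results of these data known. The named genes were, by rule, all members, Foxn1 and Ccl25, up to 4 called genes of a list with the largest change, and the 5 genes most like the members' summed CPM. Some genes of the lists are not reported here.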

Additional observations from a re-analysis of the deposited data

Results flagged for a closer look

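A sample of 4 far from the other 3 (Dixon's test) occurred in 13 of 110 groups of plates examined, where chance alone flags about 1 in 20. In several of them every other plate was at or near 0. These were H2-Aa at E10.5, at 0.075 CPM on plate b, Ciita at E10.5, at 0.16 CPM on plate a (1.14% of its cells with a molecule), and Ciita in cells without a Foxn1 molecule, at 10.8 CPM on plate e. Cd74 in parathyroid-like cells was at 5.03 CPM on plate a, the plate of the well with haematopoietic markers, and Foxn1 there was at 2.96 CPM on plate e.

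In mTEC progenitor-like cells Cd74 was at 66.1 CPM on plate c and H2-DMb1 at 15.9 CPM on plate e. In cells below their plate's Ccl25 median H2-Eb1 was low on plate a, at 3.56 CPM, and Ciita high on plate c, at 10.9 CPM. By cell, plate e, the deepest of the E12.5 plates, stood above the others for any member (67.4% of cells with a molecule) and for Foxn1 (61.8%), and E10.5 plate b for Ccl25 (8.79%).

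E12.5 plate b entered no comparison. Of its 87 cells kept, 34.5% held a molecule of H2-Ab1 (95% exact binomial interval 24.6 to 45.4), 8.05% of Cd74 and 5.75% of H2-Aa, each above the interval of the E10.5 cells. H2-Eb1 at 2.30% and H2-DMa, H2-DMb1 and Ciita at 1.15% each lay inside the E10.5 intervals, at unlike depth. The median was 1536 molecules per cell on plate b and 4062.5 at E10.5. Thinned to 1000 molecules, H2-Eb1 was at 1.84% on plate b and 0.13% at E10.5, and H2-DMa at 0.89% and 0.42%. H2-DMb1 was at 0.81% and 0.10%, and Ciita at 0.89% and 0.13%. On plate b these rest on 2 cells for H2-Eb1 and 1 for each of the others.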

How the results depend on the processing

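The calls between the stages (H2-Aa, H2-Ab1 and Cd74) kept their direction under all 15 alternatives, and with a replicate block over the 3 shared plate letters 2 of them remained (Cd74 adjusted p = 0.055, or 0.060 in the lineage comparison, edgeR). The letters share only a number across stages (correlation of residuals -0.01 to 0.07). Genes called between the stages went from 718 to 1269 with DESeq2 and 215 with the block, and in the lineage comparison from 577 to 1114 and 195. Against parathyroid-like cells 3 members were called, 4 with DESeq2 (with Cd74 added), 2 on molecules (H2-Ab1 and Cd74), 1 with the replicate block and 0 to 1 when a plate was left out. There the genes called went from 789 to 1292 with DESeq2, 295 with the block, 384 with the lower filter and 111 to 139 without a plate, and the share of calls that were higher from 77.8% to 63.7% with DESeq2, 62.2% with the lower filter, 59.0% with the block, 48.6% on molecules and 44.4% to 51.4% without a plate. Between mTEC progenitor-like and cTEC-like cells 0 members went to 2 with DESeq2 and 2 on molecules, and the genes called from 4 to 580, 84 and, with the block, 12 (8 with RLE factors or another clustering, 0 without any one plate). For Ccl25, 0 members went to 1 with DESeq2 and 2 on molecules, and genes from 2 to 66, 21 and, with the block, 5 (0 to 1 without a plate, 1 in cTEC-like cells alone). For Foxn1, genes went from 1 to 26 with DESeq2 and 0 without plate c or d. The block changed no other member's call.

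H2-DMa against parathyroid-like cells turned to 1.81 with the block and 0.88 without the haematopoietic well, and ranged from -0.84 to 0.37 without a plate. For Foxn1, H2-Ab1 turned to 0.0033 with the block, 0.23 on molecules and 0.082 when cells were split by a Foxn1 read. Cd74 turned to 0.083 on molecules and 0.31 by read, H2-Aa to 0.22 and H2-Eb1 to 0.93 by read. H2-DMb1 for Ccl25 turned to 0.0023 in cTEC-like cells alone. Without a plate the Foxn1 differences ranged from -0.62 to 0.11 (H2-Aa), -0.29 to 0.14 (H2-Ab1), -0.44 to 0.11 (Cd74) and -0.60 to 1.64 (H2-DMb1), that of H2-DMb1 for Ccl25 from -0.65 to 0.15, and that of Cd74 between mTEC progenitor-like and cTEC-like cells from -3.02 to 0.050. None of these passed the test, and the cause was not tested.

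The share of E12.5 cells with any member rose with the depth at which molecules were counted. It was 26.9% thinned to 1000 molecules, 40.002% thinned to 2000, 51.8% without thinning and 71.0% counting any read. The gain in H2-Ab1 detection with Cd74 went from 26.9 to 43.4 percentage points without thinning, and the difference in any member by Foxn1 from 1.92 to 8.16 points. That between the outer Ccl25 groups was 31.9 points. Leaving out the haematopoietic well and adding the other E10.5 cells were chosen after seeing the data.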

Other observations

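Mitotic genes and the members were compared by cell, with the genes of the mitotic list as the split. Of the thymic epithelial-like cells, a molecule of any member was found after thinning in 27.0% of 128 cells with a mitotic transcript and in 35.1% of 163 cells without. Given as a description, H2-Aa was found in 3.84% and 7.20% of the same cells, H2-Ab1 in 18.3% and 22.9%, H2-Eb1 in 1.74% and 6.02%, and Cd74 in 7.02% and 12.2%. Ciita was found in 0.34% and 0.80%, and H2-DMa in 0.85% and 1.21%. H2-DMb1 went the other way, at 1.41% and 0.91%. Of the 6 mitotic genes 0 were called by edgeR between the stages, 1 had an unadjusted p under 0.05 and DESeq2 called 1.

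B2m, the light chain of MHC class I, was at 26.4, 20.3, 15.5 and 13.1 CPM on the E12.5 plates (a, c, d, e) and at 2.31, 5.81, 5.48 and 2.16 CPM on E10.5 plates a to d, without overlap, as for 8.59% of all genes tested, and it did not pass (log2 fold change 2.15, standard error 0.61, adjusted p = 0.063, edgeR). All 10 tested genes of the class I list had a log2 fold change above 0 between the stages, with a median of 2.78.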
